A study of Mus musculus with 9 samples.

Results

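The genes described here are 10 markers of brain endothelial cells measured in ribosome-associated RNA of CA3/CA2 PV INs: Cldn5, Pecam1, Cdh5, Flt1, Kdr, Tek, Slco1a4, Abcb1a, Ly6c1 and Itm2a. They form a list of named endothelial genes and make up 10 of the 37620 genes in the count files. All 10 passed the filter on low counts, 1 CPM (counts scaled to library size) or more in at least 1 sample, which kept 15069 genes. With shRNA replicate 4 left out they all passed it again, among 14515 genes.

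Both groups were PV-Cre; Rpl22HA/HA mice, in which Cre recombinase made under the parvalbumin gene adds an HA tag to ribosomal protein L22, so that the ribosomes of PV INs can be pulled down. Lentivirus was injected into DG of mice aged 2 months and carried a non-target shRNA (shNT, 5 samples) or an shRNA against Ablim3 (shRNA, 4 samples). CA3/CA2 was collected 2 weeks after the injection. Each sample was pooled from 6 male and female mice. The paper describes the tagged protein as restricted to PV INs, so the design is not meant to tag endothelial ribosomes. The samples include no input RNA and no pulldown without Cre. RNA of vessels that came along with the pulldown therefore cannot be told from RNA made by tagged cells, and its origin was not tested. The comparison asks how the RNA of these endothelial genes varied between samples and whether it differed between shNT and shRNA.

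Brain endothelial cells line the vessels and form the blood-brain barrier. Tight and adherens junctions seal neighbouring cells, transporters in their membranes pass nutrients in and pump drugs out, and receptor tyrosine kinases on their surface receive VEGF and angiopoietins from surrounding cells. Members of the ETS, SOX, FOX and GATA families of transcription factors set the endothelial programme. The 10 genes are shown by these roles: junction and adhesion proteins, growth factor receptors, transporters, and other membrane proteins.

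RefSeq promoter windows of the GRCm38.p6 build, from 250 bases before the start site to 50 from it on, were found for 8 of the 10 genes (9 windows). The 3 printed below belong to Kdr and Ly6c1, at opposite ends of the order of fold changes with all samples, and to Flt1, the other VEGF receptor. Capitals mark AGGAAG, an ETS-type motif searched on both strands together with CGGAAG.
Flt1 (chr5:147725962-147726261, minus strand): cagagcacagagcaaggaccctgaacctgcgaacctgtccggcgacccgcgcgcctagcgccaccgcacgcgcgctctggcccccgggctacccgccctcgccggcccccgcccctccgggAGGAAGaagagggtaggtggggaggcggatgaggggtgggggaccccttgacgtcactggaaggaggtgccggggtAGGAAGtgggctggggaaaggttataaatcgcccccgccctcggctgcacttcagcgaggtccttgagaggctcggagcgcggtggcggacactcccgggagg
Kdr (chr5:75978406-75978705, minus strand): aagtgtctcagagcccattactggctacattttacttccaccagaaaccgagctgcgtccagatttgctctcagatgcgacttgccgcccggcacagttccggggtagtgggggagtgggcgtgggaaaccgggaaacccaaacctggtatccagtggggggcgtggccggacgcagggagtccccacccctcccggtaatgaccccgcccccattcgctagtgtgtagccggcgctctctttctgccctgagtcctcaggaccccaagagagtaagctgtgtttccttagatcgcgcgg
Ly6c1 (chr15:75048614-75048913, minus strand, the second of its windows): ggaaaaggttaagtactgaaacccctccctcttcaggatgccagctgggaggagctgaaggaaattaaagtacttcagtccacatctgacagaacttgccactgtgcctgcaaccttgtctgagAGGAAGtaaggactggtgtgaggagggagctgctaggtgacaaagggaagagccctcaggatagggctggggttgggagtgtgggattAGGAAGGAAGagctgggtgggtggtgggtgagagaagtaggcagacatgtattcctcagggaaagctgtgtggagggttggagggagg
Counted from the start site, AGGAAG began at positions -129 and -53 in the Flt1 window. The Ly6c1 window held it at -126, -38 and -34, where the last matches overlap, and the Kdr window held neither ETS-type motif on either strand. At least 1 of the ETS-type motifs was present in 5 of the 9 windows (Abcb1a, Flt1, Itm2a, Ly6c1 and Slco1a4) and in 46.5% of all 32851 promoter windows. The SOX-type motifs ACAAAG or ACAATG were found in 4 of the 9 windows against 28.6% of all, the GATA-type AGATAA in 2 against 11.2%, and the FOX-type GTAAACA in 1 against 3.65%.

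Between 18281719 and 34578837 reads were counted on genes per sample. The endothelial genes took 0.0139 to 0.0488% of these reads in shNT, 0.00881 to 0.0173% in shRNA replicates 1 to 3 and 0.148% in shRNA replicate 4. That sample stood apart in other measures as well. Reads outside exons were 27.2% of uniquely aligned reads in it and 9.76 to 19.8% in the other 8, and its Pvalb level was 310 CPM against 539 to 1375. Ablim3 was at 12.1 to 22.6 CPM in shNT and 13.7 to 21.7 CPM in shRNA. Since the shRNA was delivered to DG and the RNA came from CA3/CA2, this level does not check the knockdown. Each result is therefore given with and without shRNA replicate 4. Levels are CPM after TMM normalization, and differences are log2 fold changes (shRNA minus shNT) with standard error and FDR from edgeR's quasi-likelihood test over all tested genes. Calls required 1.5-fold or more and an FDR under 0.05.

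None of the 10 genes was called in the 9 samples, where 1.75% of all tested genes were called (1.74% higher and 0.0133% lower), and none was called without shRNA replicate 4, where 0.978% were. The likelihood ratio test, DESeq2 and limma voom called none of them with all samples and 14.8, 15.7 and 19.4% of all genes, but DESeq2 gave an FDR for only 9 of the 10 and none for Kdr. The direction of the difference turned on that sample. With all 9 samples 9 of the 10 log2 fold changes were above 0, with a median of 0.50, whereas 57.9% of all genes were above 0 and their median was 0.11. Without shRNA replicate 4 all 10 were below 0, with a median of -0.92, against 47.0% of all genes and a median of 0.03. The sign turned from above to below 0 in 9 of the 10 genes, all but Ly6c1, and in 7.90% of all genes. An unadjusted p under 0.05 was reached by none of the 10 with all samples, where 34.1% of all genes reached it. Without shRNA replicate 4 it was reached by 4 of the 10, all lower in shRNA (Cldn5, Cdh5, Ly6c1 and Itm2a), while 25.9% of all genes reached it and 11.3% did so with a lower level.

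**Figure D1:**
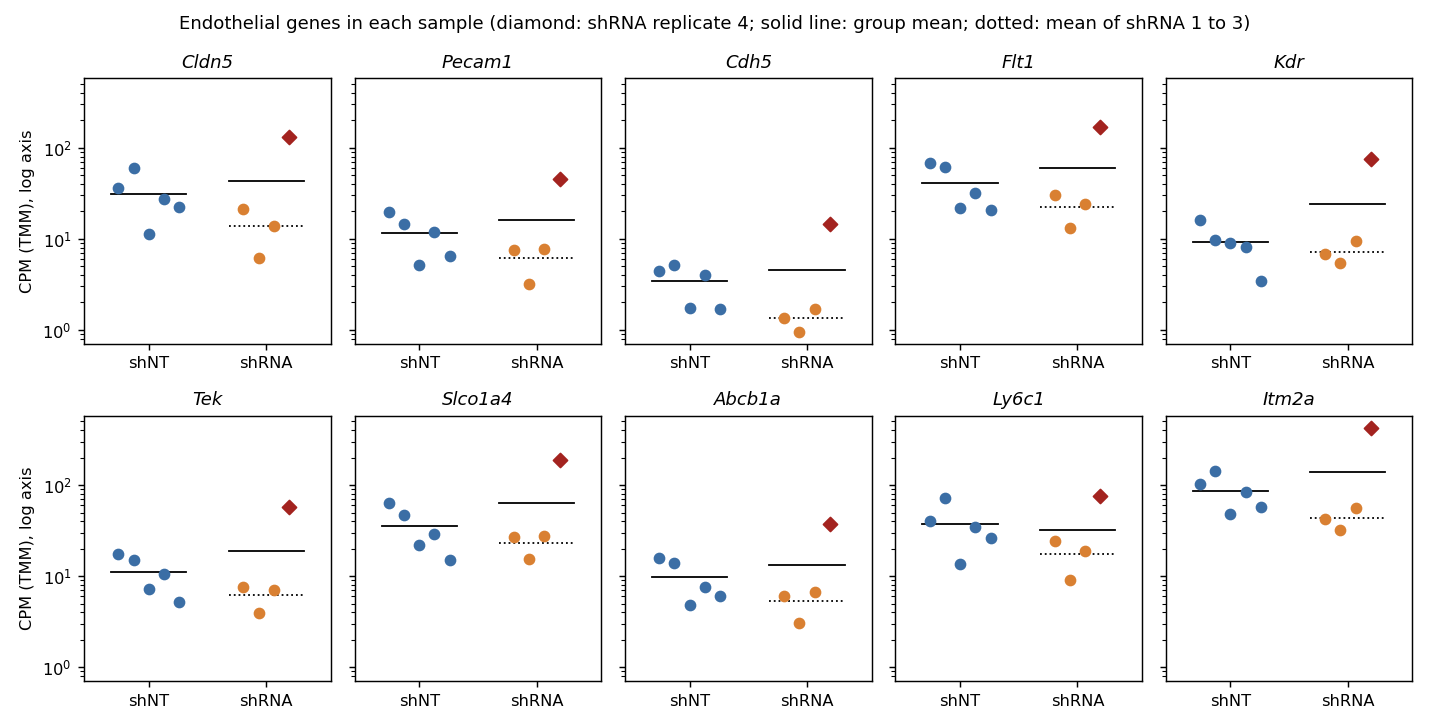
Level of each of the 10 endothelial genes in every sample, as CPM on a log axis, with shNT replicates 1 to 5 and shRNA replicates 1 to 4 from left to right in each panel. Solid lines are group means and dotted lines the mean of shRNA replicates 1 to 3. The diamond, shRNA replicate 4, is the highest point in all 10 panels, from 14.4 CPM for Cdh5 to 425 CPM for Itm2a.

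Cldn5 (ENSMUSG00000041378, mm9 chromosome 16, 18776940 to 18778353), which encodes claudin-5, the main sealing protein of the tight junctions of brain vessels, was at 36.2, 60.1, 11.2, 27.4 and 22.1 CPM in shNT replicates 1 to 5 and at 21.1, 6.18, 13.8 and 131 CPM in shRNA replicates 1 to 4. The shRNA group held both the lowest and the highest sample, and shNT replicate 2 was the highest control. The log2 fold change was 0.46 ± 0.75 (SE, FDR 0.683) with all samples and -1.24 ± 0.53 (FDR 0.175) without shRNA replicate 4.

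Pecam1 (ENSMUSG00000020717, chromosome 11, 106515531 to 106611942), the adhesion molecule CD31 found at endothelial cell contacts, was at 19.7, 14.6, 5.18, 11.8 and 6.40 CPM in shNT and 7.54, 3.16, 7.75 and 45.2 CPM in shRNA. Replicates 1 to 3 of shRNA lay within or below the range of shNT. Its log2 fold change was 0.47 ± 0.67 (FDR 0.634), and -0.93 ± 0.45 (FDR 0.217) without shRNA replicate 4.

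Cdh5 (ENSMUSG00000031871, chromosome 8, 106625525 to 106668402) encodes VE-cadherin, the cadherin of endothelial adherens junctions. It was at 4.44, 5.09, 1.75, 4.04 and 1.69 CPM in shNT and 1.36, 0.96, 1.69 and 14.4 CPM in shRNA, with 27 to 319 reads per sample, the fewest of the 10 genes. It was the one gene of the 10 whose groups did not overlap once shRNA replicate 4 was left out, and the margin was thin, since the third shRNA sample and the lowest shNT sample were equal to 3 digits. Among all genes 7.68% lay below shNT without overlap in that comparison. With all 9 samples none of the 10 genes separated the groups, whereas 8.97% of all genes lay above and 6.68% below. The Cdh5 log2 fold change was 0.43 ± 0.74 (FDR 0.694), and -1.38 ± 0.44 (FDR 0.135) without shRNA replicate 4, the lowest value of the 10.

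The receptors of VEGF and angiopoietin come next. Flt1 (ENSMUSG00000029648, chromosome 5, 148373180 to 148537587), which encodes VEGF receptor 1, was at 67.9, 61.3, 22.0, 32.1 and 20.9 CPM in shNT and 30.04, 13.3, 24.4 and 170 CPM in shRNA. Controls fell into a higher pair, replicates 1 and 2, and 3 lower samples that shRNA replicates 1 to 3 overlapped. The fitted difference on the log2 scale was 0.54 ± 0.67 (FDR 0.572), and -0.89 ± 0.44 (FDR 0.223) without shRNA replicate 4.

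Kdr (ENSMUSG00000062960, chromosome 5, 76328852 to 76374483), VEGF receptor 2 and the main signalling receptor for VEGF-A, was at 16.0, 9.59, 8.88, 8.17 and 3.48 CPM in shNT and 6.75, 5.47, 9.44 and 75.3 CPM in shRNA. In shRNA replicate 4 it was 8.16 times the shNT mean, the largest such ratio of the 10, and replicates 1 to 3 all lay inside the shNT range. Its log2 fold change was the highest of the 10, 1.39 ± 0.73 (FDR 0.197), and without shRNA replicate 4 it was the nearest to 0, -0.37 ± 0.38 (FDR 0.546).

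Tek (ENSMUSG00000006386, chromosome 4, 94405980 to 94541667) encodes TIE2, the receptor of the angiopoietins. Its levels were 17.4, 14.9, 7.27, 10.4 and 5.18 CPM in shNT and 7.54, 3.94, 7.02 and 57.6 CPM in shRNA. Controls ranged over the first 3 shRNA samples except for replicate 2, which was the lowest of the 9. Its log2 fold change was 0.79 ± 0.70 (FDR 0.429), and -0.86 ± 0.39 (FDR 0.193) without shRNA replicate 4.

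Of the transporters, Slco1a4 (ENSMUSG00000030237, chromosome 6, 141753961 to 141804720), an organic anion transporter of the barrier, was at 63.5, 46.7, 22.0, 28.9 and 15.0 CPM in shNT and 27.2, 15.2, 27.4 and 188 CPM in shRNA. All of shRNA replicates 1 to 3 lay inside the shNT range. The log2 fold change was 0.87 ± 0.68 (FDR 0.368), and -0.62 ± 0.42 (FDR 0.353) without shRNA replicate 4.

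Abcb1a (ENSMUSG00000040584, chromosome 5, 8660077 to 8748575) encodes P-glycoprotein, the efflux pump that returns many drugs to the blood. It was at 16.0, 14.05, 4.87, 7.57 and 6.12 CPM in shNT and 6.05, 3.06, 6.75 and 37.7 CPM in shRNA. Of shRNA replicates 1 to 3 only replicate 2 lay below the lowest control. The fitted log2 difference was 0.46 ± 0.65 (FDR 0.625), and -0.91 ± 0.43 (FDR 0.205) without shRNA replicate 4.

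Ly6c1 (ENSMUSG00000079018, chromosome 15, 74875447 to 74879260), a GPI-anchored surface protein of the Ly6 family, was at 40.2, 72.1, 13.7, 35.1 and 26.3 CPM in shNT and 24.5, 9.03, 19.0 and 75.5 CPM in shRNA. Here shRNA replicate 4 was only just above shNT replicate 2, and its ratio to the shNT mean, 2.02, was the smallest of the 10. Ly6c1 had the one log2 fold change below 0 with all samples, -0.23 ± 0.57 (FDR 0.795), and it was -1.14 ± 0.49 (FDR 0.181) without shRNA replicate 4.

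Itm2a (ENSMUSG00000031239, chromosome X, 104592438 to 104598715), a type II membrane protein used as a brain endothelial marker, was at 103, 142, 47.9, 84.4 and 57.3 CPM in shNT and 42.5, 32.1, 56.0 and 425 CPM in shRNA. The first and second shRNA samples were below every control and the third was between the controls. The log2 fold change was 0.68 ± 0.69 (FDR 0.493), and -1.03 ± 0.35 (FDR 0.140) without shRNA replicate 4. Reads of Ly6c1, Abcb1a and Slco1a4 that also align to close relatives (Ly6c2, Abcb1b, other Slco1a genes) were not counted, so the levels of these genes are uncertain. No exon of the 10 genes overlapped another annotated gene.

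**Figure D2:**
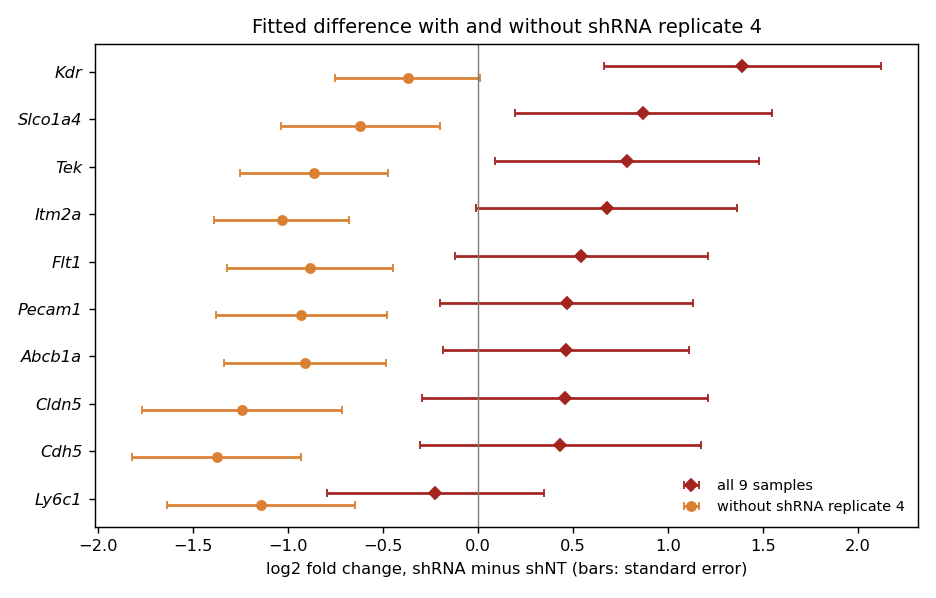
Fitted log2 fold change (shRNA minus shNT, x axis) of each endothelial gene with all 9 samples (diamonds) and without shRNA replicate 4 (circles), with standard errors as bars. Diamonds run from -0.23 for Ly6c1 to 1.39 for Kdr, and circles from -1.38 for Cdh5 to -0.37 for Kdr, so that all circles lie left of 0.

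Across samples the genes rose and fell together. shRNA replicate 4 was the highest of the 9 samples for all 10 genes, where it was the highest for 33.3% of all tested genes. The lowest sample was shRNA replicate 2 for 8 genes and shNT replicate 5 for Kdr and Slco1a4. Among controls the highest was replicate 1 for 6 genes and replicate 2 for 4, and the lowest was replicate 3 for 5 and replicate 5 for 5. As a median over the 10 genes, the ratio to the shNT mean was 1.61, 1.47, 0.526, 0.911 and 0.534 in shNT replicates 1 to 5 and 0.664, 0.320, 0.640 and 4.205 in shRNA replicates 1 to 4. The summed level was 144.6 to 440 CPM in shNT (277 ± 131, mean ± SD, n = 5), 92.4 to 175 CPM in shRNA replicates 1 to 3 and 1221 CPM in replicate 4. Controls thus spanned a 3.05-fold range among themselves, and shRNA replicate 4 was 2.77 times the next highest sample. In bulk RNA, fewer endothelial cells and less RNA from each cannot be told apart.

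Over the 8 samples without shRNA replicate 4, log2 CPM of each gene correlated with the mean of the other 9 genes at Pearson's r of 0.910 to 0.981, except Kdr at 0.650. These points share the libraries and their normalization. Beside the 10 genes, 74 further endothelial genes were listed, 69 of which were tested in these 8 samples. Of these 45 (65.2%) had an r of at least 0.8 with the mean of the 10 genes. Among all tested genes outside the 10, with these 69 included, 2.29% did. So did 7 of 10 pericyte, 3 of 5 smooth muscle, 2 of 5 red blood cell and 2 of 6 fibroblast markers. None of the 11 astrocyte, 8 microglia, 7 oligodendrocyte or 11 PV IN markers did. The 10 genes most alike, among 10738 with at least 5 CPM on average, were Slco1c1 (r = 0.994), Podxl (0.988), Pltp (0.984), Esam (0.982), Tie1 (0.979), Ahnak (0.978), Fcgrt (0.974), Lef1 (0.973), Ctsh (0.973) and Tmem204 (0.972). All 10 were again highest in shRNA replicate 4, at 2.29 to 3.37 times their maximum in the other 8 samples. Slco1c1 transports thyroid hormone across the barrier, Esam is an endothelial adhesion molecule and Tie1 is the relative of TIE2. Of Pltp exons 19.3% overlap another gene, so its count is uncertain.

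Per kilobase of exon, the mean level in shNT was highest for Itm2a, at 49.8 ± 21.6 CPM per kb (SD, n = 5), and for Ly6c1, at 44.6 ± 26.0 CPM per kb, followed by Cldn5 at 22.2 ± 13.04 CPM per kb. These levels per kb were at the 90.5, 89.5 and 80.1 percentile of all tested genes. Slco1a4 came next at 9.14 CPM per kb, then Flt1 at 3.53, Pecam1 at 2.67, Tek at 2.34, Abcb1a at 1.77, Kdr at 1.27 and Cdh5 at 0.854, the last at the 21.3 percentile. Within single samples the order held in all 9 for Cldn5 over Slco1a4, Slco1a4 over Flt1, Flt1 over Pecam1 and Kdr over Cdh5. It held in 8 of 9 for Ly6c1 over Cldn5 and for Tek over Abcb1a, in 7 for Itm2a over Ly6c1, in 6 for Pecam1 over Tek and in 5 for Abcb1a over Kdr. Each mean differed from the next in the order by less than the larger SD of the pair, except Cldn5 from Slco1a4 and Slco1a4 from Flt1.

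The proportions of the endothelial genes among themselves differed between samples as well. The ratio of Cldn5 to Ly6c1 CPM was nearly constant in controls, at 0.781 to 0.902 (0.835 ± 0.0434, SD, n = 5), and was 0.863, 0.685 and 0.723 in shRNA replicates 1 to 3 but 1.74 in replicate 4. The ratio of Ly6c1 to Kdr CPM varied widely in controls, at 2.51, 7.51, 1.54, 4.29 and 7.57, and was 3.63, 1.65, 2.02 and 1.00 in shRNA. Flt1 to Slco1a4 stayed between 0.872 and 1.39 in all 9 samples. Of the summed level per kb, Ly6c1 took 25.2 to 35.9% in shNT and 16.8% in shRNA replicate 4, Itm2a 34.1 to 42.6% and 45.7%, and Cldn5 12.3 to 17.8% and 17.4%. The exon length of the 10 genes and their log2 fold change had a Spearman rho of 0.48 with all samples and 0.62 without shRNA replicate 4. This is across 10 genes in the same samples and was not tested.

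**Figure D3:**
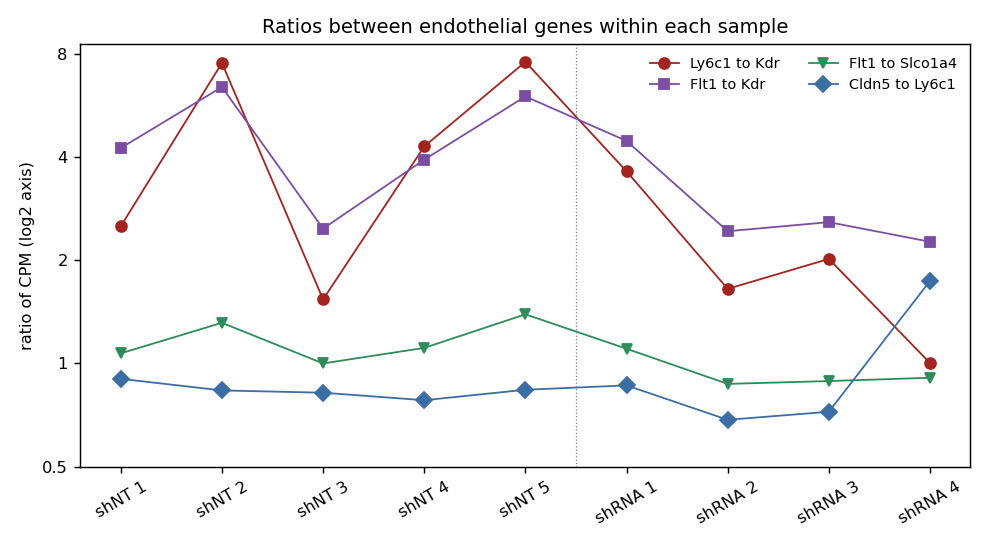
Ratios of CPM between pairs of endothelial genes (y axis, log2 scale) in each of the 9 samples (x axis). Cldn5 to Ly6c1 lies between 0.685 and 0.902 in 8 samples and at 1.74 in shRNA replicate 4, whereas Ly6c1 to Kdr runs from 1.00 to 7.57 and is lowest in that sample.

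Of the 74 further endothelial genes 73 were tested with all samples. shRNA replicate 4 was the highest of the 9 samples in 66 of the 73, and their median log2 fold change was 0.55 with 65 above 0. Both counts include Marveld2, Aplnr, Foxl2 and Tal1, which passed the filter only through shRNA replicate 4. The filter itself made that sample their highest, and they were not tested without it. Without shRNA replicate 4 the median was -0.54 and 60 of the 69 tested were below 0. An unadjusted p under 0.05 with a lower level in shRNA was reached by 12 of the 69, against 11.3% of all genes, and none was called lower. Tjp1, which encodes the junction scaffold ZO-1 and is made by many cell types, was called higher both with all samples (2.12 ± 0.42, FDR 0.0414) and without shRNA replicate 4 (2.27 ± 0.42, FDR 0.0445). Its level was 70.4, 38.6, 27.1, 16.0 and 15.9 CPM in shNT and 169, 127, 196 and 90.6 CPM in shRNA. Every shRNA sample was above every control, as for 8.97% of all genes, and shRNA replicate 4 was the lowest of its group. Nrp1, a VEGF and semaphorin co-receptor also made by neurons, was called with all samples (0.75 ± 0.15, FDR 0.0403) and not without shRNA replicate 4 (0.69 ± 0.16, FDR 0.0630). It was at 39.6 to 54.7 CPM in shNT and 72.1 to 89.6 CPM in shRNA, again with no overlap (8.97% of all genes). Over the 8 samples their r with the mean of the 10 genes was -0.21 and -0.27.

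By role, the 10 further junction genes had a median log2 fold change of 0.92 and, for the 9 tested without shRNA replicate 4, of -0.47. Esam was at 19.9 ± 8.98 CPM in shNT, 10.2 ± 3.13 in shRNA replicates 1 to 3 and 72.1 in replicate 4, and Ocln, which encodes occludin, at 11.3 ± 5.01, 8.22 ± 1.49 and 66.0 CPM. The 14 transport genes had medians of 0.64 and -0.20. Among them the glucose transporter gene Slc2a1 was at 85.0 ± 26.5, 70.6 ± 15.6 and 221 CPM, the amino acid transporter gene Slc7a5 at 77.6 ± 22.0, 69.1 ± 10.4 and 199.98 CPM, and its partner Slc3a2, which neurons also make, at 134.7 ± 16.8, 122 ± 6.19 and 163 CPM. For the 20 signalling genes the medians were 0.62 and, over 19, -0.50. The sphingosine-1-phosphate receptor gene S1pr1, which astrocytes also express, was at 40.7 ± 10.9, 47.8 ± 6.81 and 233 CPM. Ramp2, a subunit of the adrenomedullin receptor, was at 21.1 ± 6.68, 14.1 ± 3.11 and 38.1 CPM, with 33.4% of its exons overlapping another gene.

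Endothelial transcription factors had a median of 0.46 over 14 genes and of -0.97 over the 12 tested without shRNA replicate 4, all 12 below 0. Klf2, which responds to blood flow, was at 12.2 ± 6.41, 6.74 ± 3.67 and 41.4 CPM, Epas1, which encodes HIF-2alpha, at 29.0 ± 12.4, 26.7 ± 5.79 and 108 CPM, and Sox18 at 8.28 ± 4.55, 3.94 ± 2.07 and 19.0 CPM. Surface and secreted proteins had medians of 0.24 and -0.68, with all 15 tested below 0 in the second comparison. Ly6a was at 26.5 ± 14.8, 12.01 ± 5.38 and 54.3 CPM, Ly6e at 170 ± 22.1, 137 ± 10.3 and 169 CPM, and Spock2, which neurons also make, at 479 ± 71.5, 462 ± 46.0 and 434 CPM. None of the genes named in these roles was called apart from Tjp1 and Nrp1.

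Markers of vessel segments were not called in either direction. Over 7 arterial genes the median log2 fold change was -0.08 with all samples and -0.98 without shRNA replicate 4. Over 6 venous genes it was 0.39 and -0.26, and over 8 capillary genes 0.33 and -0.16. Not all of these genes followed the endothelial profile. Without shRNA replicate 4, r with the mean of the endothelial genes ran from -0.53 (Efnb2) to 0.93 (Bmx) in the arterial list. It ran from -0.24 (Nr2f2) to 0.87 (Slc38a5) in the venous list and from -0.53 (Tfrc) to 0.94 (Cxcl12) in the capillary list. The medians therefore do not compare vessel segments as such, and a difference between segments was not tested. Mgp, an arterial matrix protein gene, was at 2.77, 7.34, 1.92, 2.77 and 3.54 CPM in shNT and 1.00, 1.31, 1.69 and 2.62 CPM in shRNA (-1.15 ± 0.43, FDR 0.0955), so that here shRNA replicate 4 was inside the shNT range. Hey1, a Notch target gene, was at 39.7 ± 4.09 CPM in shNT, 35.9 ± 0.805 in shRNA replicates 1 to 3 and 43.3 in replicate 4, and Efnb2, the arterial ephrin-B2 gene, at 19.5 ± 5.66, 22.6 ± 5.80 and 25.7 CPM. In the venous list Tmsb10 was at 16.4 ± 5.82, 12.2 ± 2.07 and 17.2 CPM, the chemokine receptor gene Ackr1 at 8.67 ± 2.30, 6.89 ± 2.48 and 3.61 CPM, and Nr2f2, a transcription factor of venous identity, at 25.2 ± 4.57, 22.9 ± 2.92 and 28.2 CPM. Besides Spock2, the capillary genes of highest level per kb were Ivns1abp, at 185 ± 25.9, 204 ± 3.89 and 266 CPM, and Rgcc, at 16.2 ± 3.46, 13.2 ± 2.29 and 41.3 CPM.

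A list of ligand genes, whose products are made largely by other cells, had log2 fold changes on both sides of 0. Beside VEGF and angiopoietin genes it holds Wnt7a, Wnt7b, Ndp and Angptl1, which are not ligands of the VEGF or angiopoietin receptors above. Its counts and medians therefore do not describe a single pathway. With all samples 9 of the 11 were above 0, with a median of 0.58. Without shRNA replicate 4 it was 6 of the 11, with a median of 0.27. Vegfb, which binds VEGF receptor 1, was at 77.3, 82.3, 70.6, 89.99 and 91.5 CPM in shNT and 67.2, 58.7, 57.5 and 33.7 CPM in shRNA. Every shRNA sample was below every control, as for 6.68% of all genes, and replicate 4 was the lowest. Vegfb did not pass the test (-0.60 ± 0.19, FDR 0.0708, and -0.45 ± 0.14, FDR 0.125, without shRNA replicate 4). Pgf, the placental growth factor gene, was at 35.8 ± 5.76 CPM in shNT, 30.3 ± 1.86 in shRNA replicates 1 to 3 and 15.0 in replicate 4. Vegfa was at 59.4 ± 2.36, 53.5 ± 4.65 and 107 CPM. Wnt7b was at 8.59 to 13.9 CPM in shNT and 15.4 to 44.1 CPM in shRNA (1.29 ± 0.29, FDR 0.0503). Wnt7a was at 2.20 to 4.24 and 4.97 to 11.5 CPM (0.94 ± 0.31, FDR 0.0752). Both thus lay above shNT without overlap, as 8.97% of all genes did. None of the 11 ligand genes was called.

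Lists of other cell types were set beside the endothelial genes. Over 11 pericyte markers the summed level was 51.1 to 161 CPM in shNT, 45.3 to 61.2 in shRNA replicates 1 to 3 and 345 in replicate 4, and of its defining genes Rgs5 was at 138 CPM and Vtn at 79.1 CPM in replicate 4 against shNT means of 41.0 ± 21.5 and 23.8 ± 10.5 CPM. Smooth muscle markers summed to 8.95 to 61.5, 22.2 to 30.1 and 55.8 CPM, and 5 red blood cell genes to 25.6 to 75.5, 17.7 to 29.4 and 75.9 CPM. The highest control was replicate 2 in both lists. Fibroblast markers summed to 9.95 to 16.8, 11.96 to 13.9 and 34.2 CPM.

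Astrocyte markers, of which 11 were listed, summed to 1112 to 1588 CPM in shNT, 1486 to 1759 in shRNA replicates 1 to 3 and 5725 in replicate 4. Unlike the endothelial genes, 10 of the 11 had a log2 fold change above 0 without shRNA replicate 4 as well (median 0.50, none called). Oligodendrocyte markers were at 764 to 2384, 1451 to 2699 and 3029 CPM, and microglia markers at 69.8 to 124, 107 to 123 and 108 CPM, so that the microglia sum in shRNA replicate 4 was inside the shNT range. PV IN markers summed to 4954 to 8128 CPM in shNT, 5053 to 7143 in shRNA replicates 1 to 3 and 2944 in replicate 4, 0.407 times the shNT mean. All defining markers of these lists were detected in shRNA replicate 4 (CPM above 0), which does not mean a higher level than in shNT. The part of each of these lists, and of reads outside exons, in the endothelial values was not tested.

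**Figure D4:**
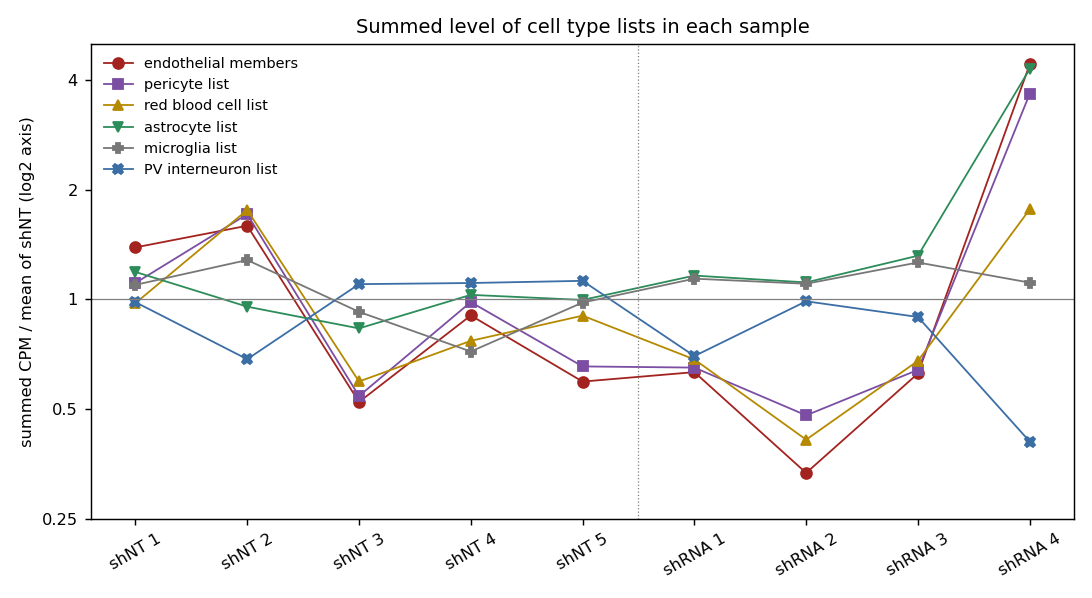
Summed CPM of 6 gene lists in each sample (x axis), divided by its mean over shNT (y axis, log2 scale). In shRNA replicate 4 the endothelial genes are at 4.41, astrocyte markers at 4.29, pericyte markers at 3.66, red blood cell genes at 1.77, microglia markers at 1.11 and PV IN markers at 0.407 times the shNT mean.

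**Figure D5:**
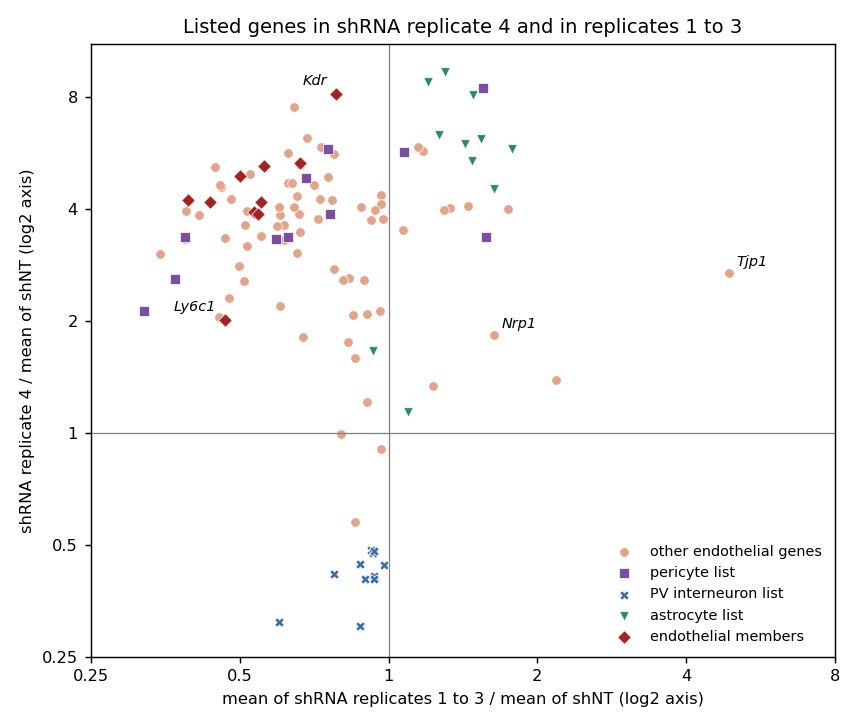
Each point is a gene, placed by the mean of shRNA replicates 1 to 3 (x axis) and by shRNA replicate 4 (y axis), both divided by the mean of shNT on log2 scales. The 10 endothelial genes (diamonds) lie left of 1 and between 2.02 and 8.16 on the y axis, and PV IN markers (crosses) lie below 1 on both axes, while Tjp1 and Nrp1 lie right of 1.

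The names of the samples fall into a set YTa31 (shNT and shRNA replicates 1 to 3) and a set YTa32 (shNT replicates 4 and 5 and shRNA replicate 4), and what the sets stand for is not given in the sources used here. Within YTa31 all 10 endothelial genes were lower in shRNA, with a median log2 fold change of -1.19, against 48.6% of all genes. None was called, with FDR of 0.385 to 0.480, and no gene of 14475 was. Within YTa32 there is 1 shRNA sample and so no test. That sample was 2.46 (Ly6c1) to 12.9 (Kdr) times the mean of shNT replicates 4 and 5. The opposite directions of the sets rest on shRNA replicate 4, so that the set and this sample cannot be told apart.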

How the data were processed

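Ribosome-associated RNA of CA3/CA2 PV INs was sequenced in 5 shNT and 4 shRNA samples, each a separate pool of 6 mice. The authors aligned the reads to the mm9 transcriptome with STAR, used HTSeq 0.6.0 to count reads aligned once, ignoring strand, and deposited the raw counts. Positions, exon lengths and symbols (37205 of 37620 identifiers) came from the GENCODE vM1 annotation of mm9, and promoter windows from RefSeq (GRCm38.p6).

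A gene was kept when any sample reached 1 CPM (15069, with 22551 removed). Counts were TMM-normalized and tested with the quasi-likelihood test of edgeR 4.0.16 (R 4.3.3), with condition as the only term and Benjamini-Hochberg adjustment over all tested genes. Calls needed an FDR under 0.05 and 1.5-fold. Log2 levels used a prior count of 2, and the biological coefficient of variation came to 0.303. The 10 genes and all lists were chosen with earlier results of these data known, so that their directions are not independent support. Further genes named were those called, the 3 of highest level per kb in each endothelial, vessel segment and ligand list, and the 10 most alike, with Rgs5 and Vtn for pericytes. A few more are named for their r, for groups without overlap or for passing the filter only through shRNA replicate 4. Other cell types are given as sums. Alternatives used DESeq2 1.42.0, limma 3.58.1 voom, other normalizations, filters and blocks, and each sample left out.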

Additional observations from a re-analysis of the deposited data

Results flagged for a closer look

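In 9 of the 10 endothelial genes the highest shRNA sample, replicate 4, lay farther from the other 3 than Dixon's 95% criterion allows on the CPM scale. It was at 131 CPM against 6.18 to 21.1 for Cldn5, 45.2 against 3.16 to 7.75 for Pecam1 and 14.4 against 0.96 to 1.69 for Cdh5. For the receptors it was at 170 CPM against 13.3 to 30.04 for Flt1, 75.3 against 5.47 to 9.44 for Kdr and 57.6 against 3.94 to 7.54 for Tek. Slco1a4 was at 188 CPM against 15.2 to 27.4, Abcb1a at 37.7 against 3.06 to 6.75 and Itm2a at 425 against 32.1 to 56.0. Ly6c1 was the exception. Of 20 groups of values examined, chance would mark about 1, but the genes share the sample and are not independent. None of the 5 shNT samples was marked for any gene, and on the log2 scale none of the 20 groups was.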

How the results depend on the processing

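No endothelial gene of the 10 was called under any alternative, though DESeq2 gave no FDR for Kdr. Some alternatives called no gene at all, as given below. The directions above 0 (9 of 10) were kept under the likelihood ratio test, DESeq2, DESeq2 size factors, upper quartile, library size only, no filter and a filter on the mean. Leaving out 1 sample at a time, log2 fold changes ran from -1.24 to 0.83 for Cldn5, -0.93 to 0.81 for Pecam1, -1.38 to 0.78 for Cdh5, -0.89 to 0.88 for Flt1, -0.37 to 1.72 for Kdr, -0.86 to 1.13 for Tek, -0.62 to 1.20 for Slco1a4, -0.91 to 0.79 for Abcb1a, -1.14 to 0.15 for Ly6c1 and -1.03 to 1.01 for Itm2a. Each low end was without shRNA replicate 4, and Ly6c1 was above 0 without shNT replicate 2 (0.15) or shRNA replicate 2 (0.08). With voom sample quality weights, where shRNA replicate 4 had the lowest weight (0.172), 8 genes turned: Cldn5 -1.002, Pecam1 -0.63, Cdh5 -0.99, Flt1 -0.54, Tek -0.57, Slco1a4 -0.21, Abcb1a -0.48 and Itm2a -0.62. In YTa31 alone 9 turned: Cldn5 -1.44, Pecam1 -1.14, Cdh5 -1.54, Flt1 -1.20, Kdr -0.71, Tek -1.14, Slco1a4 -0.96, Abcb1a -1.18 and Itm2a -1.21. With the name set as a block Cldn5 (-0.11) and Cdh5 (-0.16) turned. Correlations of deviations between samples of the same replicate number were -0.27, -0.64, 0.49 and -0.18. These values are too few and too mixed in sign to settle whether the numbers mark pairs. With the replicate block 8 genes turned: Cldn5 -0.32, Pecam1 -0.28, Cdh5 -0.61, Flt1 -0.28, Tek -0.27, Slco1a4 -0.055, Abcb1a -0.25 and Itm2a -0.29. That block used 4 pairs, and shNT replicate 5 has no partner.

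The median of the 10 genes, 0.50, was 0.08 with the name set block, -0.28 with the replicate block, -0.59 with voom weights and -1.19 in YTa31 alone, and ran from -0.92 to 0.85 with 1 sample left out. For the further endothelial genes the median, 0.55, was 0.24, -0.06, -0.26 and -0.80 in these settings and ran from -0.54 to 0.85. Of these genes 2 were called higher, and 4 by the likelihood ratio test and DESeq2, 5 by voom (which called 5 lower), 1 with the replicate block, and 0 with library size only, with upper quartile or in YTa31 alone. With 1 sample left out the number ran from 0 to 3: 1 without shRNA replicate 4 and 0 when shNT replicate 3, 4 or 5 was left out, as for shRNA replicate 1 or 3. Wherever the number was 0, no gene of all those tested was called, so it says nothing particular to endothelial genes. Over all genes the calls, 262 higher and 2 lower, became 1688 and 542 with the likelihood ratio test, 1532 and 833 with DESeq2, 2301 and 618 with voom, 501 and 14 with no filter, 29 and 0 with the replicate block and 0 with library size only or upper quartile. They were 376 and 1 with the name set block and 142 and 0 without shRNA replicate 4. Without shNT replicate 1 they were 1007 and 410, without shNT replicate 2 481 and 1, and without shRNA replicate 2 353 and 0. The cause was not tested. Each of the 10 genes had at least 27 reads in every sample.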
